A study of Mus musculus with 10 samples.

Results

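The genes described here are 10 genes of antigen display and of the interferon response in mouse muscle. They are H2-D1, H2-K1, H2-Q6 and H2-Q7, which encode class I histocompatibility heavy chains, B2m, which encodes their shared light chain, and the interferon-induced genes Ifit1, Ifit3, Ifit3b, Ifi44 and Ifi211. They were chosen by name, with their values per library and earlier comparisons of these data known, out of 20009 genes with at least 1 count. All 10 passed the filter on low counts, which left 5115 genes to test. The tissues were soleus, a slow calf muscle, and TA, the tibialis anterior, a fast muscle of the shin, both of wild-type mice with no treatment named. The soleus libraries came from 2 females and 3 males, and the TA libraries from 2 females and 3 males. The labels give no strain and no age, and replicate numbers within a sex were read as animals, so that each of 5 animals gave both muscles. RNA came from bulk muscle, so fewer cells of a type and less RNA per cell cannot be told apart.

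Class I molecules carry peptides from inside the cell to its surface, where CD8 T cells read them. Each consists of a heavy chain and beta-2 microglobulin, without which most heavy chains do not reach the surface. The heavy-chain genes are among the most polymorphic genes of the mouse. Interferons bind receptors that act through JAK kinases and STAT proteins, and the STAT complex with IRF9 binds a promoter element, the ISRE, that many interferon-induced genes carry. Class I genes respond to interferon and to NF-kB as well, and resting skeletal muscle fibers are known for little class I protein.

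The promoter sequences below are shown with letters that match 3 motifs bound by interferon-responsive factors or by NF-kB. They are given to compare the 4 heavy-chain genes with B2m and with the interferon-induced genes. They come from RefSeq windows of GRCm38.p6 that run from 250 bases before the annotated start to 50 bases after it, and 10 of 10 genes had a window. The stretches below are 5′ to 3′ on the gene's strand, with the matched motif letters in capitals and 15 bases on either side. Both strands were searched for the ISRE letters, GAAA followed by any 2 bases and a second GAAA, for the shorter core of interferon regulatory factor (IRF) sites AANNGAAA, which lies within every ISRE match, and for the kB letters GGGATTCCC.
H2-D1, chr17:35262909-35262966, plus strand: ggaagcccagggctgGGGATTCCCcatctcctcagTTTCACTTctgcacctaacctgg
H2-K1, chr17:34000415-34000472, minus strand: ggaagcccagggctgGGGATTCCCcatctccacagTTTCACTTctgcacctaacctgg
H2-Q6, chr17:35424663-35424720, plus strand: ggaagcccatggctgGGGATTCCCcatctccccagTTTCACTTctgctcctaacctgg
H2-Q7, chr17:35439008-35439064, plus strand: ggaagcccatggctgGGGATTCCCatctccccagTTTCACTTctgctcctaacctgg
B2m, chr2:122147533-122147572, plus strand: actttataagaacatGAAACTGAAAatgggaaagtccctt
Ifit1, chr19:34640770-34640828, plus strand: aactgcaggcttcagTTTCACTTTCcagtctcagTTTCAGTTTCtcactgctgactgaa
Ifit3, chr19:34583358-34583431, plus strand: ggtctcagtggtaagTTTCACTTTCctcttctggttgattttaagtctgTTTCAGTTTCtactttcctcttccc
Ifit3b, chr19:34607754-34607827, plus strand: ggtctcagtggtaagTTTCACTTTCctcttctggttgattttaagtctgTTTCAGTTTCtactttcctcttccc
Ifi44, chr3:151749897-151749980, minus strand: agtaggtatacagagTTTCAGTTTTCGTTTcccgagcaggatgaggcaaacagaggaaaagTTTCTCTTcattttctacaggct
Ifi211, chr1:173913059-173913098, minus strand: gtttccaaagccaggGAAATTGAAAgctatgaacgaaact

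All 4 heavy-chain windows held the kB letters followed by an IRF core, and none of the 4 held the full ISRE letters. The H2-D1 and H2-K1 stretches matched at 57 of 58 bases of the reference. The counts of these genes are described below, and a link between promoter and counts was not tested. The H2-Q6 stretch matched that of H2-D1 at 55 of 58 bases. B2m and Ifi211 held 1 ISRE match each, Ifit1 held 2, and Ifit3 and Ifit3b held 2 each in stretches that were identical over 74 bases. Ifi44 held IRF cores without the full ISRE letters. Of 32851 windows of the same length, 3.44% held the ISRE letters, 23.9% the IRF core and 0.353% the kB letters. A match describes letters in the reference and was not tested as a site.

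**Figure D1:**
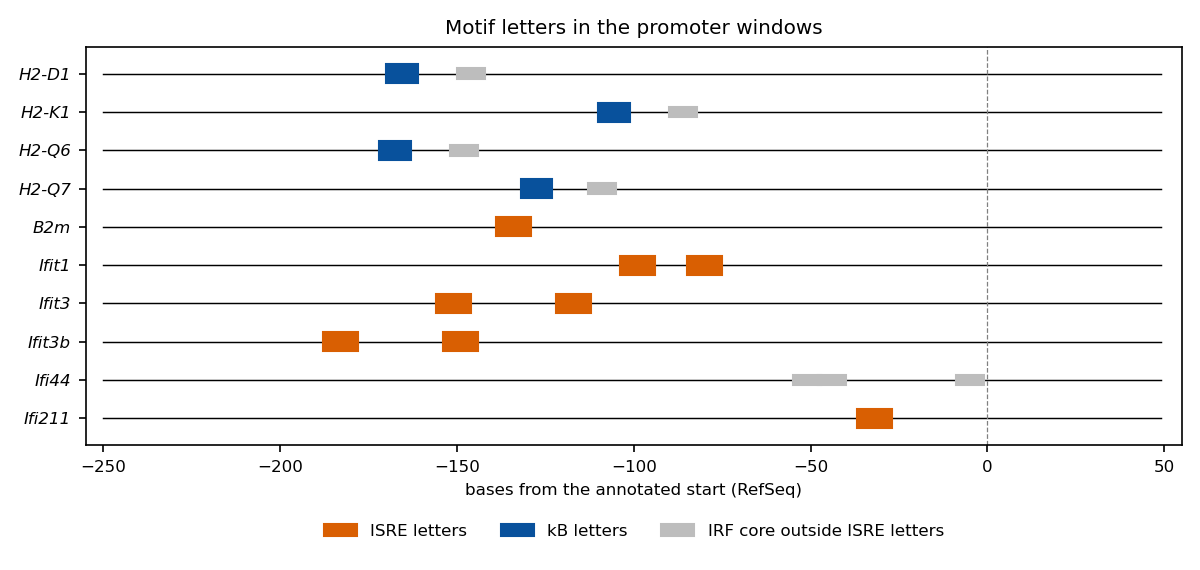
Motif letters in the promoter windows of the 10 genes, from 250 bases before the annotated start to 50 after it (horizontal axis, bases from the start, which is 0). Boxes mark ISRE letters, kB letters and IRF cores outside ISRE letters; the 4 heavy-chain genes carry kB letters with an IRF core downstream, and Ifit1, Ifit3 and Ifit3b carry 2 ISRE matches each.

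Each library held between 726414 and 961844 counts. Of the counts matched to genes, Gm20594 took 17.2 to 28.4% and Cep295 3.85 to 6.26%, with the Gm20594 share higher in every soleus library than in any TA library. All other genes together had 513984 to 696675 counts in a library. Levels below are CPM, the counts divided by the TMM-scaled library size and multiplied by 1000000. The genes share sequence with others to different degrees, so levels should not be compared from gene to gene. All 8 slow-fiber markers were higher in soleus and all 8 fast-fiber markers lower, each past the threshold in edgeR's quasi-likelihood test. The Y-linked gene Ddx3y had 0 counts in the 4 female libraries, against 6 to 20 in the 6 male libraries. The library labelled soleus female 2 stood apart, with counts for 15070 genes against 10971 to 11858 in the other libraries. It also had 92 counts of Kdm5d, another Y-linked gene, against 6 to 11 in the other female libraries and 9 to 23 in the male libraries. Y-linked Uty had 18 counts there, against 0 to 5 in the other female libraries and 1 to 6 in the male libraries. Y-linked Eif2s3y had 0 counts there and 0 or 1 in the other female libraries, against 3 to 12 in the male libraries. Kdm5d and Uty thus did not separate the sexes in the other libraries. Results that rest on this library are given with and without it. Sex, the individual animals, any difference in strain and any handling that followed sex cannot be told apart in this design, because 2 females were set against 3 males.

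None of the 10 genes separated the muscles when libraries were compared without regard to the animal. The soleus and TA libraries overlapped for 10 of 10 genes, whereas 7.29% of all tested genes had every soleus library above every TA library and 7.76% had every one below. At an adjusted p under 0.05 in edgeR's quasi-likelihood test, 0 of the 10 genes were called and 1 had an unadjusted p under 0.05. Of all tested genes 22.0% were called. That fit did not pair the muscles of an animal. Within animals, B2m and Ifit1 were higher in soleus in 5 of 5, and the other members went both ways. The members' median log2 difference, soleus over TA, was 0.07, against 0.006 over all tested genes. The members were chosen with these values known, so their soleus and TA levels are a description.

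Most members differed between the sexes more than between the muscles. Female and male libraries of both muscles together did not overlap for 8 of the 10 genes: 6 lay above the males, against 2.09% of all tested genes, and 2 lay below, against 1.68%. The genes above were H2-K1 and the 5 interferon-induced genes, the genes below were H2-D1 and H2-Q6, and H2-Q7 and B2m overlapped. The direction was shared by both muscles of each sex, and the muscles of an animal are not independent. The males also differed among themselves. In both muscles male 3 was the lowest male for H2-D1, H2-Q6 and H2-Q7 and the highest for Ifit1, Ifit3 and, narrowly, Ifi211. For H2-K1, Ifit3b and Ifi44 male 3 was not the male nearest the females in both muscles. In the fits over all genes, 5 of 10 members were called in soleus, against 0.547% of all tested genes, and 2 of 10 in TA, against 0.645%. In soleus the 4 genes called higher in females were Ifit3, Ifit3b, Ifi44 and Ifi211 (0.352% of all tested genes), and the 1 called lower was H2-D1 (0.196%). In TA 0 members were called higher (0.371%), and the 2 called lower were H2-D1 and H2-Q6 (0.274%). The soleus count was 0 without soleus male 1 or 2, where 1 and 2 of all tested genes were called. It was 1 without soleus male 3 or TA male 1 (4 and 10 of all tested genes). It was at least 4 without TA male 2 or 3 (17 and 19 of all tested genes). Leaving out a female library leaves 1 female in a muscle, so those counts are not given here. Effect sizes of the interferon-induced genes without soleus female 2 are given below. The TA count was 0 without any 1 TA male, where 1 to 4 of all tested genes were called. It was 1 without soleus male 2 (11 of all tested genes) and 2 without soleus male 1 or 3 (26 and 15 of all tested genes). The list was evidently drawn up with this pattern in view, so nothing is read from these counts and no p is given for a member's sex difference.

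**Figure D2:**
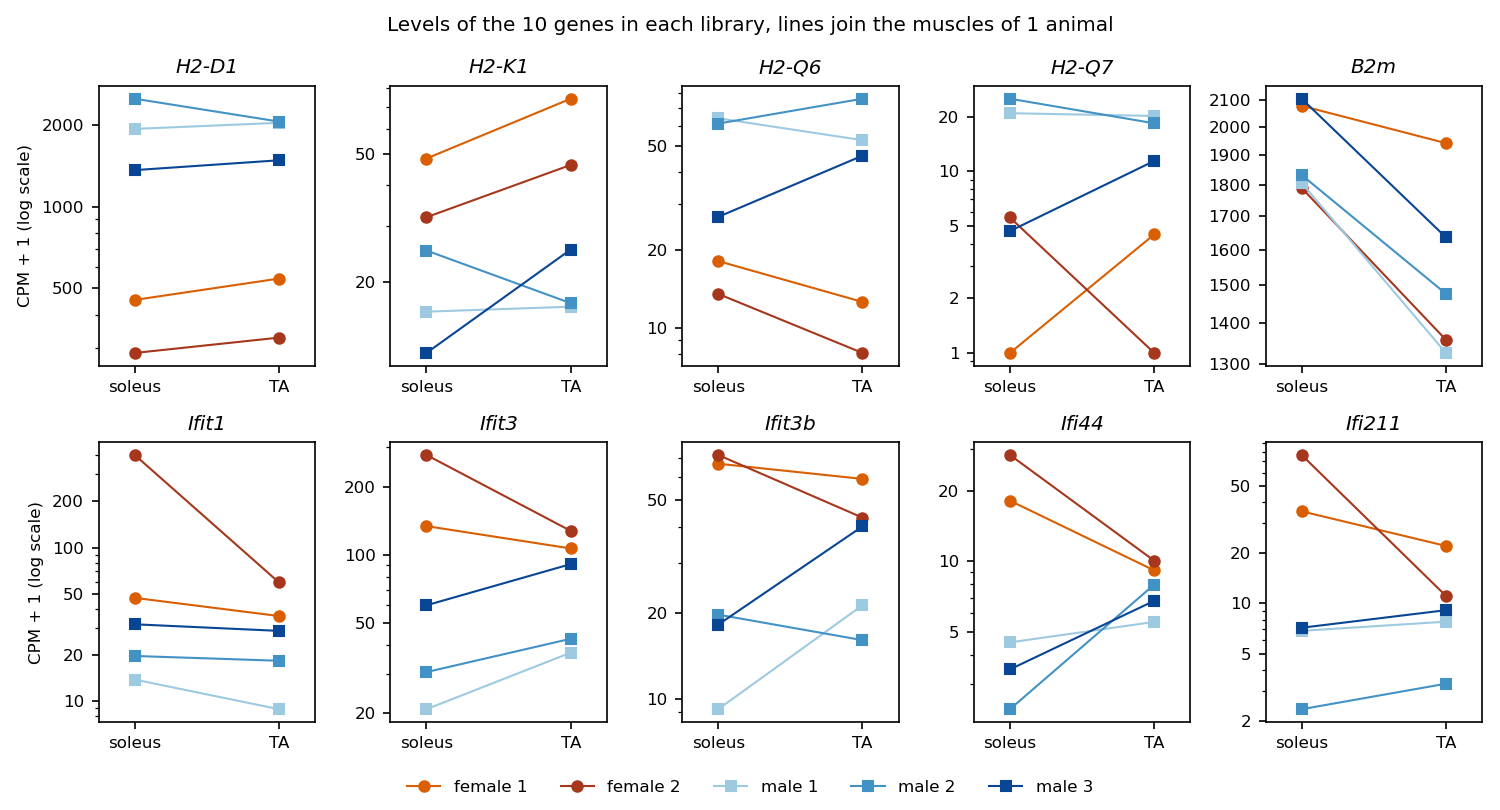
Level of each gene in each of 10 libraries (vertical axis, CPM + 1, log scale), soleus on the left and TA on the right, with colours for sex and lines joining the muscles of 1 animal. Female points lie below male points for H2-D1 and H2-Q6 and above them for H2-K1 and the 5 interferon-induced genes, and soleus female 2 is highest for Ifit1 at 399.7 CPM.

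H2-D1 encodes a classical heavy chain and lies on chromosome 17 (35262730-35267499, plus strand, GRCm38). In soleus it had 452 and 288 CPM in females, against 1934, 2500 and 1363 CPM in males. In TA it had 542 and 328 CPM in females, against 2038, 2058 and 1482 CPM in males. All 4 female libraries were below all 6 male libraries, and the muscles of 1 animal stayed close together. The log2 difference, female over male, was -2.39 (SE 0.34) in soleus and -2.10 (SE 0.34) in TA. Within an animal, soleus and TA differed by at most 0.28 on the log2 scale, while the animals' means spanned 2.88. Averaged over sexes, H2-D1 had 1307 ± 947 CPM in soleus and 1290 ± 817 CPM in TA (SD, n = 5 each), with a log2 difference of -0.06 (SE 0.21).

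The reads of H2-D1 fell almost entirely on 1 protein-coding transcript, H2-D1-202, which held 99.42% of the gene's counts and has 8 exons. Of the gene's 31-base words, 73.29% occurred in no other gene, and 13.82% were shared with H2-K1. The aligner and its treatment of reads that match several genes are not given in the sources used here, so counts of the heavy-chain genes are uncertain to that extent. These genes are polymorphic, the labels give no strain, and the reads were counted on the reference genome. Whether the animals carried different alleles was not tested, so a difference in alleles and a difference in expression cannot be told apart.

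H2-K1 encodes the other classical heavy chain of the reference genome and lies on chromosome 17 (33996017-34000347, minus strand). In soleus it had 47.4 and 30.8 CPM in females, against 15.2, 24.1 and 11.1 CPM in males. In TA it had 73.3 and 45.3 CPM in females, against 15.8, 16.2 and 24.3 CPM in males. Females were above males in both muscles, the opposite of H2-D1, and the lowest female library (30.8) exceeded the highest male library (24.3). The log2 difference was 1.22 (SE 0.39) in soleus and 1.65 (SE 0.36) in TA. H2-K1 differed between the muscles by -0.38 (SE 0.27), with soleus at 25.7 ± 14.4 CPM and TA at 35.0 ± 24.5 CPM (SD, n = 5 each).

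The sex difference of H2-K1 lay largely on 1 of its transcripts. H2-K1-205 had 20 and 12 counts in soleus females, against 1, 1 and 2 in soleus males, and 27 and 25 counts in TA females, against 5, 3 and 3 in TA males. H2-K1-201 had 14 and 9 counts in soleus females, against 9, 13 and 6 in soleus males, and 28 and 13 counts in TA females, against 7, 8 and 13 in TA males. Female and male libraries did not overlap for the first transcript and overlapped for the second. Only 28 of the 1540 31-base words of H2-K1-205 and 42 of the 1589 words of H2-K1-201 occurred in no other transcript, so few positions tell these transcripts apart.

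B2m encodes beta-2 microglobulin and lies on chromosome 2 (122147686-122153083, plus strand). In soleus it had 2078 and 1790 CPM in females, against 1806, 1832 and 2105 CPM in males. In TA it had 1942 and 1357 CPM in females, against 1325, 1476 and 1636 CPM in males. Female and male libraries overlapped in each muscle, and the log2 difference was 0.01 (SE 0.20) in soleus and 0.16 (SE 0.20) in TA. B2m averaged 1922 ± 156 CPM in soleus and 1547 ± 252 CPM in TA (SD, n = 5 each). It was higher in soleus in 5 of 5 animals, by 0.32 on the log2 scale (SE 0.14), although the libraries of the muscles overlapped. All of its 31-base words were its own, so its counts do not share reads with another annotated gene.

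The ratio of heavy to light chain counts followed the animal. In soleus there were 21.8 and 16.1 H2-D1 counts for each 100 B2m counts in females, against 107.1, 136.4 and 64.7 in males. In TA there were 27.9 and 24.2 in females, against 153.8, 139.5 and 90.6 in males. For each 100 H2-D1 counts there were 10.5 to 13.8 H2-K1 counts in the 4 female libraries and 0.775 to 1.64 in the 6 male libraries. The ranges did not overlap for either ratio, and each compares libraries within a gene pair without putting the genes on 1 scale.

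**Figure D3:**
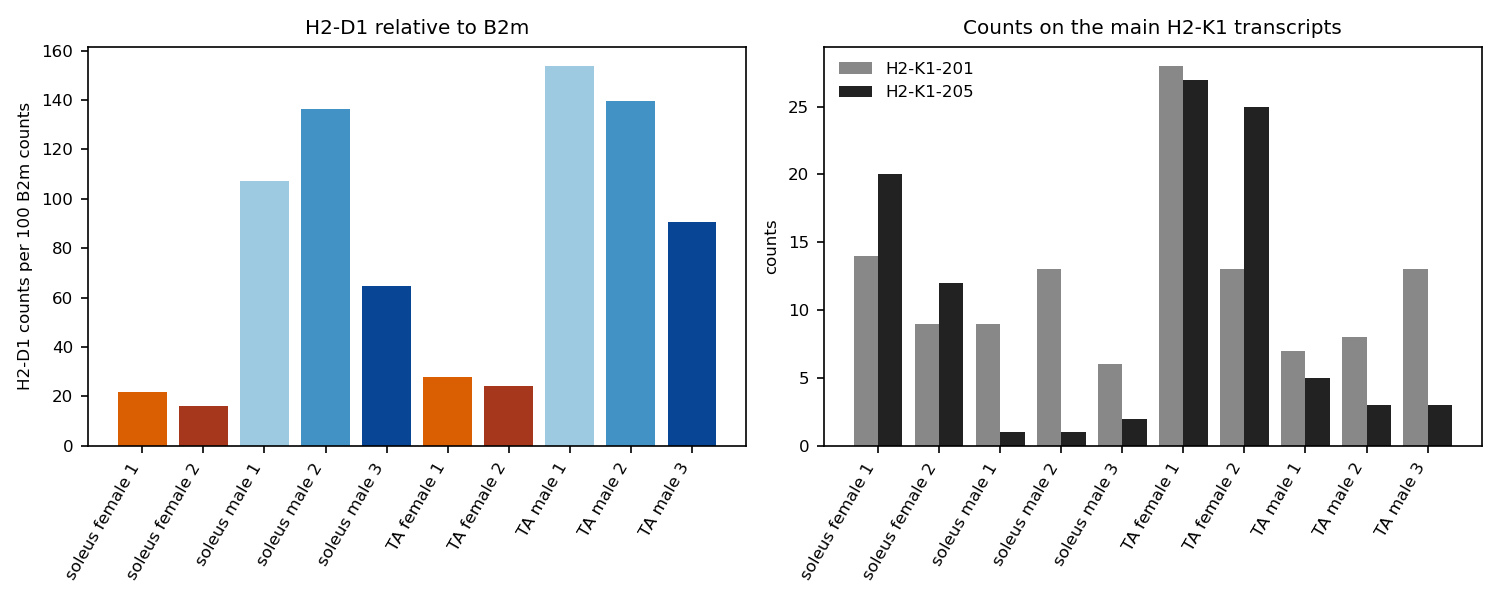
H2-D1 counts per 100 B2m counts in each library (left, bars from 0) and counts on the H2-K1 transcripts H2-K1-201 and H2-K1-205 (right). The H2-D1 ratio is 16.1 to 27.9 in the 4 female libraries and 64.7 to 153.8 in the 6 male libraries, and H2-K1-205 has 12 to 27 counts in female and 1 to 5 in male libraries.

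H2-Q6 and H2-Q7 belong to the Q region genes, which encode nonclassical heavy chains, and lie on chromosome 17 (H2-Q6 35424850-35430055, H2-Q7 35439155-35443773, both plus strand). In soleus H2-Q6 had 17.1 and 12.6 CPM in females, against 63.2, 60.2 and 25.8 CPM in males. In TA it had 11.6 and 7.04 CPM in females, against 51.9, 75.3 and 45.1 CPM in males. Its log2 difference, female over male, was -1.74 (SE 0.44) in soleus and -2.62 (SE 0.47) in TA, and all 4 female libraries lay below all 6 male libraries. Between muscles its log2 difference was 0.02 (SE 0.29).

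H2-Q7 was counted too thinly for a fold change. It had 0 and 4 counts in soleus females, against 17, 18 and 3 in soleus males, and 3 and 0 counts in TA females, against 17, 15 and 9 in TA males. The female counts were low, and 1 soleus male library with 3 counts fell within their range. Of its 86 counts 73 lay on a retained-intron transcript, H2-Q7-206, and only 60.87% of the words of H2-Q7 and 49.73% of those of H2-Q6 were their own. The closest relative by shared words was H2-Q4 for H2-Q6 and H2-Q10 for H2-Q7.

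Ifit1 encodes a protein that binds viral RNA lacking cap methylation and lies on chromosome 19 (34640871-34650009, plus strand). In soleus it had 46.1 and 400 CPM in females, against 12.9, 18.7 and 30.7 CPM in males. In TA it had 34.9 and 58.3 CPM in females, against 7.89, 17.4 and 27.7 CPM in males. Soleus female 2 was far above every other library, and every female library was above every male library. The log2 difference, female over male, was 3.42 (SE 0.73) in soleus and 1.40 (SE 0.79) in TA, and 1.15 in soleus without soleus female 2. Ifit1 averaged 102 ± 167 CPM in soleus and 29.3 ± 19.2 CPM in TA (SD, n = 5 each). It was higher in soleus in 5 of 5 animals, with a log2 difference of 1.30 (SE 0.61), which came to 0.16 without soleus female 2.

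Ifit3 and Ifit3b are neighbouring copies on chromosome 19 (34583531-34588731 and 34607970-34613401, both plus strand) whose proteins act with the other Ifit proteins. In soleus Ifit3 had 133 and 275 CPM in females, against 19.9, 29.4 and 59.0 CPM in males. In TA it had 106 and 127 CPM in females, against 36.1, 41.7 and 90.2 CPM in males. The lowest female library exceeded the highest male library, with the narrowest gap in TA. The log2 difference was 2.50 (SE 0.48) in soleus, 1.88 without soleus female 2, and 1.05 (SE 0.47) in TA. Only 38.19% of the 31-base words of Ifit3 were its own and 61.81% were shared with Ifit3b, so a share of the reads cannot be placed on 1 copy.

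Ifit3b had 65.9 and 70.8 CPM in soleus females, against 8.19, 18.7 and 17.2 CPM in soleus males. It had 58.2 and 42.2 CPM in TA females, against 20.3, 15.1 and 39.3 CPM in TA males. The soleus females were close to each other, so that the log2 difference in soleus was 2.22 (SE 0.41) with all libraries and 2.17 without soleus female 2. In TA it was 1.00 (SE 0.39). Between muscles the log2 difference was 0.03 (SE 0.39) for Ifit3 and -0.16 (SE 0.33) for Ifit3b.

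Ifi44 encodes a cytoplasmic interferon-induced protein and lies on chromosome 3 (151730922-151749960, minus strand). It had 13 and 24 counts in soleus females, against 3, 1 and 2 in soleus males, and 7 and 9 counts in TA females, against 4, 6 and 5 in TA males. The sexes were well apart in soleus and close in TA. Its log2 difference, female over male, was 3.10 (SE 0.51) in soleus, 2.72 without soleus female 2, and 0.57 (SE 0.49) in TA.

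Ifi211 belongs to the interferon-inducible PYHIN family of nucleic acid sensors and nuclear proteins, and lies on chromosome 1 (173896345-173913046, minus strand). It had 26 and 66 counts in soleus females, against 5, 1 and 5 in soleus males, and 18 and 10 counts in TA females, against 6, 2 and 7 in TA males. Female libraries were above male libraries in both muscles. The log2 difference was 3.56 (SE 0.58) in soleus, 2.88 without soleus female 2, and 1.40 (SE 0.62) in TA. Only 21.09% of its 31-base words were its own, and 49.51% were shared with its relative Ifi205. Between muscles the log2 difference was 1.00 (SE 0.51) for Ifi211, 0.51 without soleus female 2, and 0.29 (SE 0.49) for Ifi44.

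**Figure D4:**
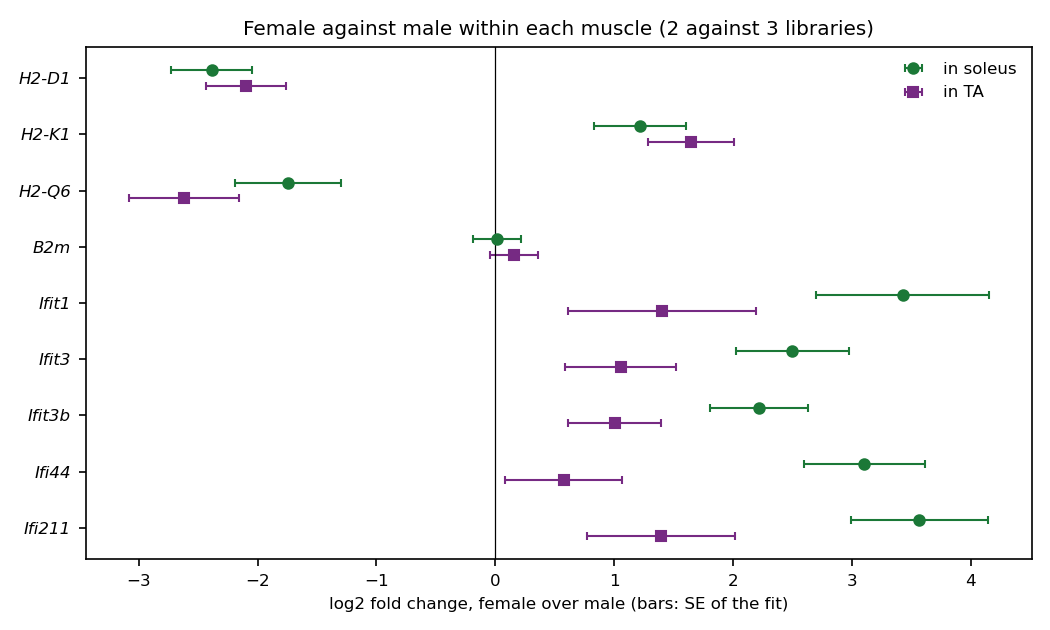
Log2 fold change, female over male, for 9 genes within soleus (circles) and within TA (squares), with bars for the SE of the fit; H2-Q7 is left out because of its low counts. H2-D1 (-2.39 and -2.10) and H2-Q6 lie below 0 in both muscles, B2m lies near 0, and H2-K1 and the 5 interferon-induced genes lie above 0, the 5 with larger values in soleus than in TA; without soleus female 2 Ifit1 is 1.15 in soleus and 1.39 in TA.

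With all libraries the 5 interferon-induced genes had a larger female over male difference in soleus than in TA, but the difference between the muscles was not called for any member. Without soleus female 2 the order turned for Ifit1, at 1.15 in soleus and 1.39 in TA, and held for Ifit3, Ifit3b, Ifi44 and Ifi211. The edgeR test of tissue by sex called 0 of 10 members and 0 of 5115 genes (0.00% of all tested genes), with 351 genes at an unadjusted p under 0.05 and 3 genes called by DESeq2. Ifi44 had the smallest p among the members, with a log2 difference of differences of 2.53 and an adjusted p of 0.546 from edgeR. Ifi211 had 2.17 and an adjusted p of 0.711 from edgeR. Among the class I genes the female over male differences of H2-D1, H2-K1 and H2-Q6 had the same sign in both muscles.

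The other genes of the pathway were taken from lists written from general knowledge: 65 of them passed the filter. Between muscles 2 of the 65 were called by edgeR, 3.08% against 22.0% of all tested genes. Mavs, the mitochondrial adaptor of cytosolic RNA sensing, had 20.5 ± 0.92 CPM in soleus and 5.14 ± 2.71 CPM in TA (SD, n = 5 each). It rose by 1.99 on the log2 scale (SE 0.34, adjusted p = 0.00111, edgeR), and the muscles did not overlap. Fcgrt, a class I-like heavy chain that binds B2m and recycles IgG, had 15.6 ± 5.25 CPM in soleus and 7.47 ± 3.21 CPM in TA (SD, n = 5 each). Its log2 difference of 1.06 (SE 0.34) had an adjusted p of 0.0433 from edgeR, of 0.0669 with the animal as a replicate block and of 0.058 from DESeq2. It was not called by edgeR without TA male 1 (adjusted p = 0.0602), soleus male 2 (0.121), TA male 2 (0.0971), soleus female 1 (0.101), TA female 1 (0.0954) or TA female 2 (0.112). With the animal as a replicate block 6 of the 65 were called: Mavs, Ifi35, Gbp6 and Gbp10 higher in soleus, and the interferon-gamma GTPases Igtp and Irgm2 lower.

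Interferon ligands and most of their receptors had few counts, and the signalling genes had more. Of 21 interferon ligand genes, 5 had a count, their sum was at most 3 counts in a library, and none passed the filter. Of 6 receptor genes 1, Ifngr2, a chain of the interferon-gamma receptor, passed the filter, and it was not called. The 26 listed genes of signalling and sensing summed to 200 to 1434 counts in a library, and Jak1, a kinase of the interferon receptors, had 148 to 330. Of 7 tested genes of this list, Mavs was the one called between muscles. Of 7 tested genes of peptide loading and the immunoproteasome 0 were called between muscles by edgeR, with 2 at an unadjusted p under 0.05 and 0 called by DESeq2. In TA, Calr, a chaperone that helps load class I molecules, had 134 and 132 CPM in females, against 57.5, 55.6 and 47.4 CPM in males. It rose by 1.31 on the log2 scale (SE 0.22, adjusted p = 0.0265, edgeR), and was no longer called when any 1 of the 5 TA libraries was left out, with adjusted p from 0.0656 to 0.195.

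Genes near the heavy chains did not share 1 pattern over the animals. The following 2 were picked after their values were seen. H2-Eb1, a class II chain, had 337 and 97.1 CPM in soleus females, against 10.5, 13.4 and 146 CPM in soleus males, and 362 and 201 CPM in TA females, against 12.4, 11.6 and 190 CPM in TA males. Male 3 was thus far from the other males in both muscles. H2-Q2, a further Q region gene, had 23.7 and 91.4 CPM in soleus females, against 32.7, 24.1 and 139 CPM in soleus males, with the same animals high in TA at 122 CPM in female 2 and 175 CPM in male 3. The 7 tested class II genes had 0 calls between muscles by edgeR, with 0 at an unadjusted p under 0.05 and 0 called by DESeq2. Neither H2-Eb1 nor H2-Q2 was called between the sexes or the muscles by edgeR among the filtered genes. Without the filter on low counts H2-Eb1 was called higher in females in both muscles. The 8 tested class I genes outside the members had a median log2 difference, female over male, of -0.17 in soleus and 0.12 in TA, and these values had no stable sign. Without soleus female 2 they were 0.08 in soleus and -0.17 in TA, over the 9 genes that then passed the filter. No TA library was left out there, so the TA value moved mainly with the set of genes. The set was also 9 genes without any 1 of the other female libraries. With any 1 library left out they ran from -0.21 to 0.27 in soleus, above 0 also without soleus male 2 (0.07) or soleus male 3 (0.27). In TA they ran from -0.18 to 0.80, below 0 without any 1 of the 4 female libraries or TA male 1, and highest without TA male 3.

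Other interferon-stimulated genes rested on 1 library. Of 69 listed genes of the type I kind, 24 passed the filter. Their median log2 difference, female over male, was 1.17 in soleus, with 23 of 24 above 0, against 0.016 over all tested genes. Without soleus female 2 it was 0.38, with 19 of 25 above 0. In TA it was 0.34, with 19 of 24 above 0, against 0.025 over all tested genes, and without TA female 1 it was 0.006, with 15 of 29 above 0. Without TA male 2 it was 0.20. Of the 24 genes 0 were called by edgeR in either muscle, with 14 at an unadjusted p under 0.05 in soleus and 2 in TA. Without soleus female 1, which leaves 1 soleus female library, the soleus median was 1.74 over 30 genes. The 11 tested GTPases and chemokines of the interferon-gamma kind had a median of 0.83 in soleus, with 9 of 11 above 0, and a median of 0.17 in TA, with 7 of 11 above 0. With 1 library left out the soleus median lay between 0.45 (without soleus female 1) and 1.22 (without soleus male 3), and was 0.71 without soleus female 2. The TA median turned to -0.42 without TA female 1, with 3 of 12 above 0, and to -0.03 without TA male 1, and it was 0.53 without TA female 2 and 0.66 without TA male 3. Over all 65 pathway genes DESeq2 called 7 in soleus: Irf8, Socs3, Ifit2, Ifi204, Trim30a, Parp14 and Tgtp1. These were 10.8% of the 65, and DESeq2 called 123 of all 5115 tested genes there. Socs3, Ifit2, Ifi204, Trim30a and Parp14 were several times higher in soleus female 2 than in soleus female 1, and Irf8 and Tgtp1 were not. DESeq2 was not run without soleus female 2.

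In soleus female 2, 17 of the 24 genes had their highest value. The median over the 24 genes, as log2 CPM minus the gene's mean over libraries, was 1.28 there and between -0.47 and 0.20 in the other 9 libraries. Ifit2, a close relative of Ifit3, had 63.3 and 346 CPM in soleus females, against 28.1, 45.5 and 40.6 CPM in soleus males. Isg15, which encodes a ubiquitin-like protein, had 13.2 and 110 CPM in soleus females, against 4.68, 1.34 and 19.7 CPM in soleus males. In both genes soleus female 2 was several times above every other soleus library, and soleus female 1 was closer to the males. Isg15 was named after its values were seen.

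**Figure D5:**
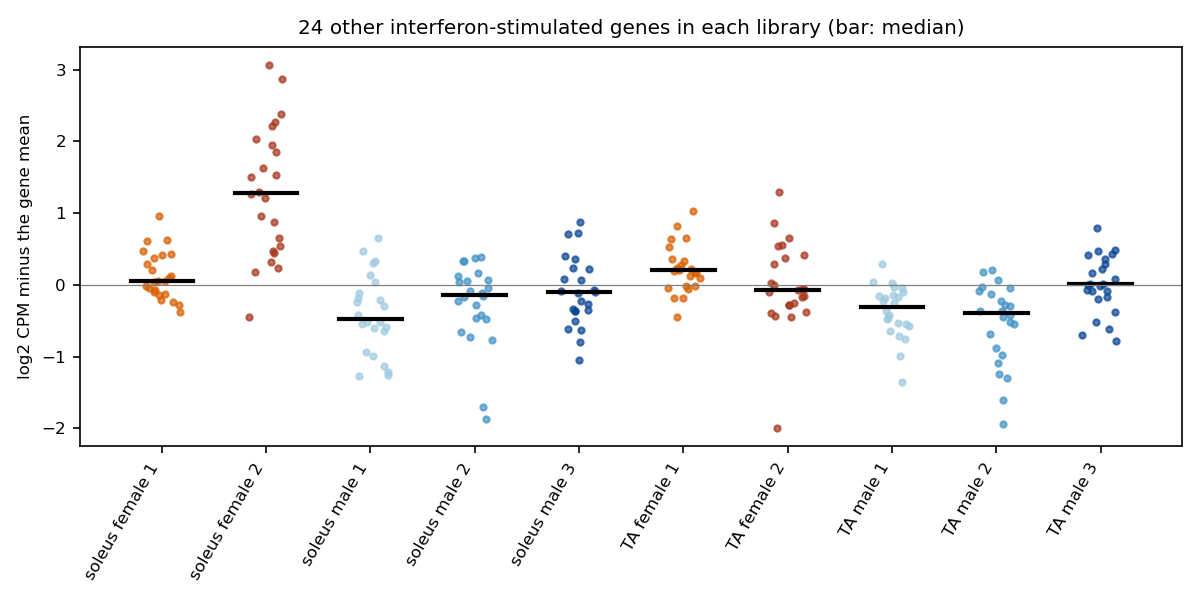
Each point is 1 of 24 interferon-stimulated genes outside the members in 1 library (vertical axis, log2 CPM minus the gene's mean over the 10 libraries), and the bar is the library's median. Soleus female 2 has a median of 1.28, and the other 9 libraries lie between -0.47 and 0.20.

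Some markers of immune cells were high in both libraries of female 2, whereas the interferon-stimulated genes stood out in soleus female 2. In TA female 2 the median of the 24 interferon-stimulated genes was -0.07, and 0 of them had their highest value there. The summed counts of 5 neutrophil markers were 42 in soleus female 2 and 244 in TA female 2, against 3 to 9 in the other 8 libraries. Socs3, an inhibitor of cytokine signalling that interferons and other cytokines induce, had 887 counts in soleus female 2 and 680 in TA female 2, against 7 in soleus female 1, 187 in TA female 1 and 1 to 11 in the male libraries. The 10 macrophage markers summed to 342 to 781 counts in female libraries and to 563 to 893 in male libraries, and the lowest sum was that of soleus female 2. Lyz2 made up much of these sums, with 97 to 361 counts in female libraries and 266 to 487 in male libraries. Cd14, a marker of the same list that was singled out after its values were seen, had 101 counts in soleus female 2 and 125 in TA female 2, against 6 to 23 in the other 8 libraries, so it was high in the same libraries as the neutrophil markers. The 5 pan-leukocyte markers summed to 46 to 108 counts in female and 42 to 81 in male libraries. The 9 T and NK cell markers summed to 7 to 20 counts, the 4 B cell markers to 0 to 10 and the 5 dendritic cell markers to 3 to 15 over all libraries. Of 9 endothelial markers 3 were tested, and Kdr, a receptor for vascular growth factors, and Cdh5, a junction protein, were lower in soleus. Kdr had 47.3 ± 12.5 CPM in soleus and 126 ± 43.5 CPM in TA (SD, n = 5 each), a log2 difference of -1.40 with an adjusted p of 0.0017 from edgeR. Cdh5 had 165 ± 32.5 CPM in soleus and 395 ± 175 CPM in TA (SD, n = 5 each), a log2 difference of -1.20 with an adjusted p of 0.00338 from edgeR. The part of these cells in the members' values was not tested.

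The genes with the most similar profiles over the 10 libraries were sought for the summed CPM of each group. Likeness was the root mean square difference of mean-centred log2 CPM. For the 4 heavy chains with B2m they were Tspan3, Asb18, Mpc2, Uqcr10 and Coq5, at 0.131 to 0.182, where the sum itself varied by an SD of 0.420. That sum was nearly all H2-D1 (10884 counts over all libraries) and B2m (14652). H2-K1, H2-Q6 and H2-Q7 had 260, 311 and 86 counts. The 5 genes are thus near a mixture of H2-D1 and B2m, and neighbours of single members were not sought. For the 5 interferon-induced genes the nearest genes were Slc1a3, Gadd45g, Ifit2, Ccl7 and Garnl3, at 0.452 to 0.561, with an SD of 1.23. Of these 10 genes Ifit2 is the one on the interferon lists. Slc1a3, a glutamate transporter, had 26 and 44 counts in soleus females, against 5, 6 and 5 in soleus males, and 15 and 18 counts in TA females, against 5, 6 and 8 in TA males.

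The spread of each member over animals was set beside its largest difference between the muscles of 1 animal. For H2-Q6 the animals' means spanned 2.56 and the largest difference between muscles was 0.75, both on the log2 scale. For Ifit1 the values were 3.65 and 2.73, and without female 2 they were 1.77 and 0.57. For Ifi211 they were 2.90 and 2.65, and without female 2 they were 2.82 and 0.65. The span over animals exceeded the largest difference between muscles for all members but B2m, which had 0.38 and 0.45. Without female 2 Ifi44 was a second exception, at 1.29 and 1.33. Over all tested genes the medians were 0.74 for the span over animals and 1.05 for the largest difference between muscles. The members were chosen with these values known, so their distance from these medians follows from the choice and is a description.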

How the data were processed

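Counts of sequencing reads per Ensembl transcript, as deposited by the authors, were whole numbers in 1 file for each of 10 libraries, with transcripts of 0 counts not listed. Per the labels' protocols, total RNA of the muscles entered a preparation called Tag-Seq and a stranded Takara SMART-Seq protocol. The submitters' processing notes name bcl2fastq, Trimmomatic 0.32, FastQC and GRCm38.p4; the aligner and counter are not given in the sources used here.

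Transcripts were matched by identifier without version to GENCODE M21 (40359 of 40414) and summed to genes. Genes were filtered with filterByExpr, scaled by TMM and tested with the quasi-likelihood test of edgeR 4.0.16 in R 4.3.3 (limma 3.58.1), with Benjamini-Hochberg adjustment over 5115 genes and a threshold of 0.05. Soleus against TA had sex as a covariate; sex and the interaction used a mean for each of 4 groups. DESeq2 1.42.0 was an alternative, and the code was tested on simulated data. For profiles, 2 prior counts were added before the log2. Tables and plots were made in Python 3.11.15 (pandas 2.3.3, matplotlib 3.10.9). Sequence words of 31 bases and the promoter motifs were read from GENCODE M21 transcripts and from RefSeq.

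The members, lists and rules were chosen with earlier results of these data known. Named genes are the members, list genes called between the muscles (the 6 with the smallest p where more were called), and the 5 genes nearest in profile to each group; Calr, Socs3, Isg15, Jak1, Lyz2, Cd14, H2-Eb1, H2-Q2 and the genes called by DESeq2 or with the replicate block were named after their values were seen. Where labels do not say that libraries of a group are separate animals, p-values measure the spread between libraries. The animal numbers pair the muscles: after group means were removed, libraries of the same number correlated with r of 0.183 to 0.239 in males and 0.285 in females, the female value being shared by construction.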

Additional observations from a re-analysis of the deposited data

Results flagged for a closer look

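The level of Ifit1 in soleus female 2 was 399.7 CPM, far from the next highest soleus library at 46.1 CPM. The gap was 0.914 of the whole range of the 5 soleus libraries, above the critical value of 0.71 for 5 samples. It was 1 such value in 24 groups looked at (12 quantities in 2 muscles), where chance alone gives about 1 in 20 groups. The same library held the highest value of 17 of the 24 other interferon-stimulated genes, and it also stood apart in its number of genes with counts.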

How the results depend on the processing

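For female over male the members other than B2m kept their sign in all 290 values under the alternatives. B2m ran from -0.19 to 0.38. Female and male libraries of 8 members did not overlap, so leaving out a library could hardly turn their sign. The 290 values include H2-Q7, which was counted too thinly for a fold change. Nothing is read from the kept signs. Between muscles, where no member was called, H2-D1, H2-Q6, H2-Q7, Ifit3, Ifit3b and Ifi44 took both signs when 1 library was left out, and Ifit3 for example ran from -0.28 to 0.37. The alternative that left out both libraries of female 2 was chosen after seeing the data. In soleus, 28 genes were called for sex, against 123 with DESeq2, 449 without the filter and 1 to 1022 when 1 library was left out, the highest without soleus female 1, where the lone female library is assumed to vary like the others. In TA the 33 calls became 79, 240, 58 without female 2, and 1 to 162. The interaction had 0 calls, against 3, 58, 10 and 0 to 79. Between muscles 1126 genes were called, 1207 with the replicate block and 892 to 1353 with 1 library left out. For pathway and marker genes the 20 calls became 31 without the filter and 19 to 24. For pathway genes alone, the 2 calls between muscles became 10 without the filter, 6 with the replicate block, 9 without female 2 and 1 to 5; the 0 calls for sex in soleus became 7 with DESeq2, 18 without the filter and 0 to 23; the 1 call in TA became 2 with DESeq2, 5 without the filter, 2 without female 2 and 0 to 3. Of the members, 5 were called for sex in soleus, 8 without the filter, 1 without female 2 and 0 to 7 with 1 library left out. In TA 2 were called, 6 without the filter and 0 to 3. For the interaction 0 were called, 1 without the filter and 0 to 1. The members' median between muscles ran from -0.08 to 0.28. The causes were not tested. Depth limits H2-Q7, Ifi44 and Ifi211 most.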
